A study of Homo sapiens with 30 samples.

Results

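Acute treatment of A549 cells with MS023 and dexamethasone (Dex) together was compared with dexamethasone alone after 3 h. A549 is an established human lung adenocarcinoma line. MS023 inhibits the type I protein arginine methyltransferases (PRMTs), and dexamethasone is a synthetic agonist of the glucocorticoid receptor. The comparison was set by treatment label: 2 PRO-seq libraries of 100 nM dexamethasone with 1 µM MS023 for 3 h against 2 libraries of 100 nM dexamethasone for 3 h, 4 of the 30 libraries of the series, over all 58780 genes of the count table. Each group was a pair of samples in 0.01% DMSO; the other groups used here were 1 µM GSK591 (an inhibitor of PRMT5) with 100 nM dexamethasone for 3 h, 1 µM MS023 alone for 2 days and untreated cells. The untreated samples are labelled as 15 min in 0.01% DMSO, no label names an engineered allele, and no group used here had MS023 alone for 3 h. The labels number the replicates but do not say that they came from separate cultures, so p-values measure only the spread between these samples, which may be technical.

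Type I PRMTs place asymmetric dimethyl marks on arginines of histones, of RNA-binding proteins with arginine-glycine repeats and of transcription factors. PRMT1 does most of this work in mammalian cells, and PRMT5 places the symmetric mark on many of the same proteins. PRO-seq labels the RNA at the 3′ end of engaged polymerase, so a count per gene reads transcription in progress and not the store of finished RNA. The ligand-bound glucocorticoid receptor acts within minutes to hours on genes such as FKBP5, TSC22D3 and PER1, and PRMT1 and CARM1 (PRMT4) are known as coactivators of nuclear receptors.

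The 4 libraries held 8888745 to 12357798 counts, of which 61.0% to 74.7% fell on mitochondrial genes, and 1656442 to 2210383 counts on nuclear protein-coding genes. The 2 libraries of MS023 with Dex were the least alike of the 15 replicate pairs in the series. CPM here are counts divided by the library total after scaling by trimmed mean of M-values. Over 7076 genes at or above 10 CPM their log2 CPM correlated with r = 0.893, against 0.947 to 0.979 in the other 14 groups, and the log2 difference between them had an SD of 0.44, against 0.25 between the Dex libraries. In 287 of these genes the 2 libraries lay over 2-fold apart, against 12 for Dex. Over the same genes library 1 correlated with the 2 Dex libraries at 0.966 and 0.957, and library 2 at 0.882 and 0.892. Library 2 held 2.57 processed-pseudogene counts per 100 protein-coding counts, library 1 held 1.33, and the other 28 libraries held 1.23 to 1.74. Its mitochondrial share was 61.0%, against 71.2% in library 1. Values are therefore given for each library, and each main count with and without library 2.

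**Figure D1:**
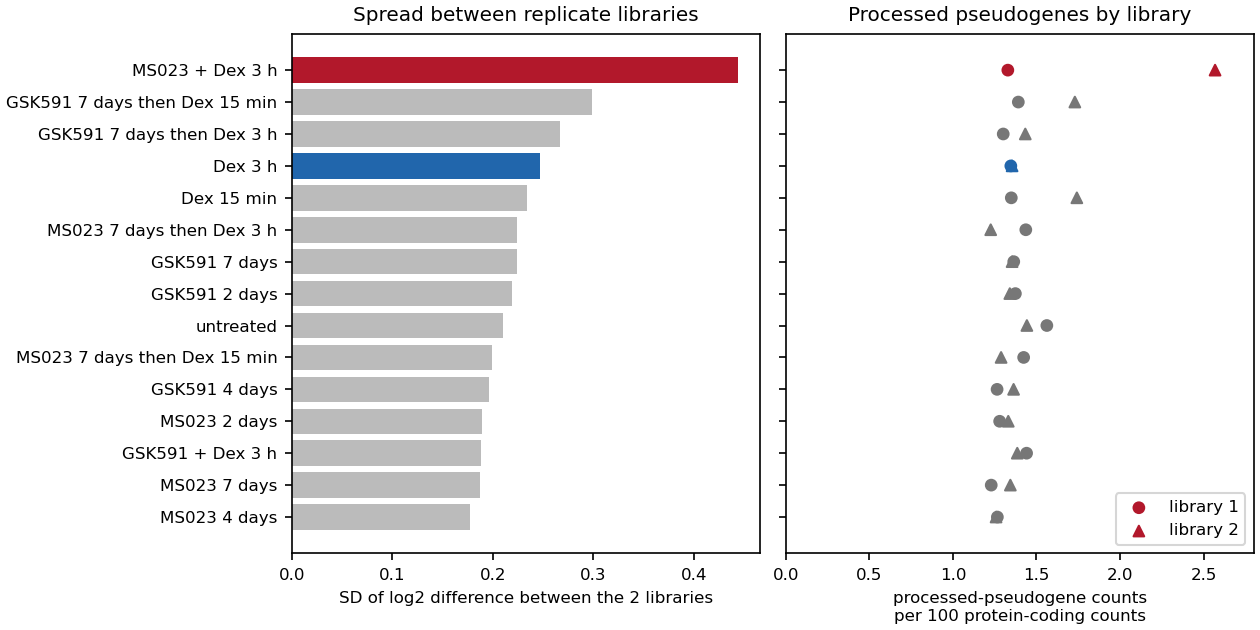
Left, the SD over 7076 genes of the log2 difference between the 2 libraries of each of the 15 groups, with MS023 + Dex in red and Dex alone in blue. Right, processed-pseudogene counts per 100 protein-coding counts for each library (circle, library 1; triangle, library 2); library 2 of MS023 + Dex lies at 2.57 and every other library at or below 1.74.

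The genes in which library 2 exceeded library 1 the most, among nuclear genes at or above 10 CPM, were ANXA2P2, NPM1P27, RPL7P9, HSP90AA2P, HSP90B2P, PLS3, KTN1 and MORF4L1P1. All but PLS3 and KTN1 are processed pseudogenes, which are intronless copies of messenger RNAs, here of annexin A2, nucleophosmin, ribosomal protein L7 and heat shock proteins among others, so that their reads cannot be told apart with certainty from those of the parent genes. KTN1, which encodes the kinesin-binding protein kinectin, had 25.0 and 24.1 CPM in the Dex libraries and 22.1 and 166 CPM in the combination. Library 1 thus lay just under both Dex libraries and library 2 far above them. The largest deficits of library 2 against library 1 were AC009299.1, CR392039.3, AC009120.2, ZBTB46, PDE6A, SERTAD1, GNB3 and AP000344.2. These were smaller: PDE6A stood at 13.8 and 7.34 CPM in the combination and 8.08 and 12.7 CPM under Dex, and its Dex libraries also lay apart.

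Over 1566 processed pseudogenes tested, the median log2 difference from the Dex mean was -0.02 in library 1 and 0.42 in library 2. Over 6446 protein-coding genes the excess of library 2 over library 1 had a rank correlation of 0.31 with exonic length and 0.36 with gene span divided by exonic length; the same measures for the Dex pair were 0.03 and 0.11. These are correlations across genes of 1 pair of libraries, and genes are not independent replicates. MALAT1, a nuclear long noncoding RNA, had 11194 counts in library 1 and 46945 in library 2, but also 8592 to 15389 under Dex and up to 144961 elsewhere in the series. MALAT1 was chosen after its values were seen.

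Few genes passed the test of acute MS023 on top of Dex. Of 22919 genes with enough counts to test, 45 passed (edgeR quasi-likelihood test, Benjamini-Hochberg adjusted p below 0.05), which is 0.196% of the genes; 31 were higher with MS023 (0.135%) and 14 lower (0.0611%). The higher genes included SMAD6, a feedback inhibitor of bone morphogenetic protein signalling; IRS2, an adaptor of the insulin receptor; CCN2, a secreted matricellular protein; KRT18, an epithelial keratin; and TXN, thioredoxin. The lower genes included UBAC2, an endoplasmic reticulum protein; NOP2, a nucleolar RNA methyltransferase; and PAXX, a factor of DNA end joining. Their median log2 fold change was 0.92 for the rises and -0.67 for the falls, against 0.01 over all genes tested.

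The calls were close to the threshold, with adjusted p from 0.0264 to 0.0459 by edgeR, and they changed with any 1 library. Without library 2 of the combination 1 gene passed, SMAD6; without library 1, 2388 passed, 1790 of them higher. Without Dex library 1 KRT7-AS alone passed, and without Dex library 2 none did, with 2667 genes at an unadjusted p below 0.05. A fit of these 2 groups alone called 0 genes (891 at an unadjusted p below 0.05), and limma with sample quality weights called 0 (1559 at an unadjusted p below 0.05). DESeq2 called 60, of which 24 were among the 45. DESeq2 gave no adjusted p to 15996 of the 22919 genes, TXN and UBAC2 among them, so a gene absent from its calls need not have failed its test. A fit that added each library's processed-pseudogene counts per 100 coding counts as a term, chosen after seeing the data, called 8 genes, 3 of them among the 45: SMAD6, IRS2 and KRT7-AS. All of the 45 kept their direction in each alternative that gave them a value. This is no evidence of stability. The alternatives refitted the same libraries or all but 1 of them, and in these genes the combination libraries did not overlap the Dex libraries.

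In all 45 genes both combination libraries lay beyond both Dex libraries on the same side. Such separation was common: 35.6% of all genes tested showed it, 17.4% above and 18.1% below, and a test of 2 libraries against 2 by permutation cannot go below p = 0.333, two-sided. Library 2 was the farther from Dex in 26 of the 31 higher genes, and in 16 of them it lay more than 0.5 log2 units beyond library 1. The median difference from Dex of the higher genes was 0.62 in library 1 and 1.11 in library 2. The lower genes were more even, with medians of -0.57 and -0.78, and in 13 of 14 the 2 libraries were within 0.5 log2 units. Exons of 13 of the 31 higher and 9 of the 14 lower genes overlap those of another gene, against 43.4% of all genes tested. Whether strand was used in counting is not given in the sources used here, so reads of such pairs may be shared.

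**Figure D2:**
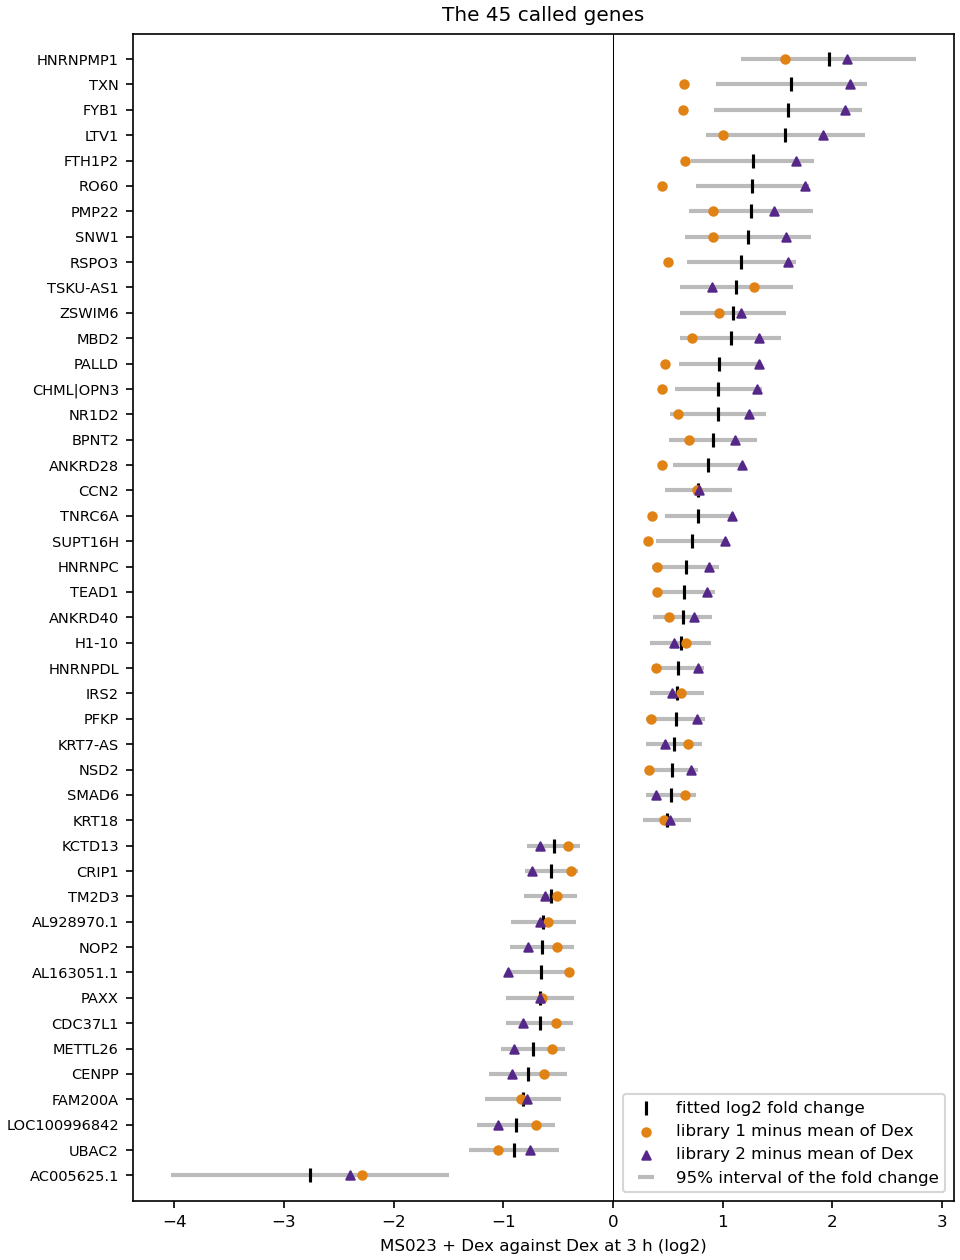
Each of the 45 called genes with its fitted log2 fold change of MS023 + Dex against Dex (bar), its 95% interval (grey) and the log2 CPM of library 1 (circle) and library 2 (triangle) minus the mean of the 2 Dex libraries. The triangles of TXN, FYB1 and RO60 lie far right of their circles, while those of CCN2, KRT18, IRS2 and PAXX almost coincide.

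**Figure D3:**
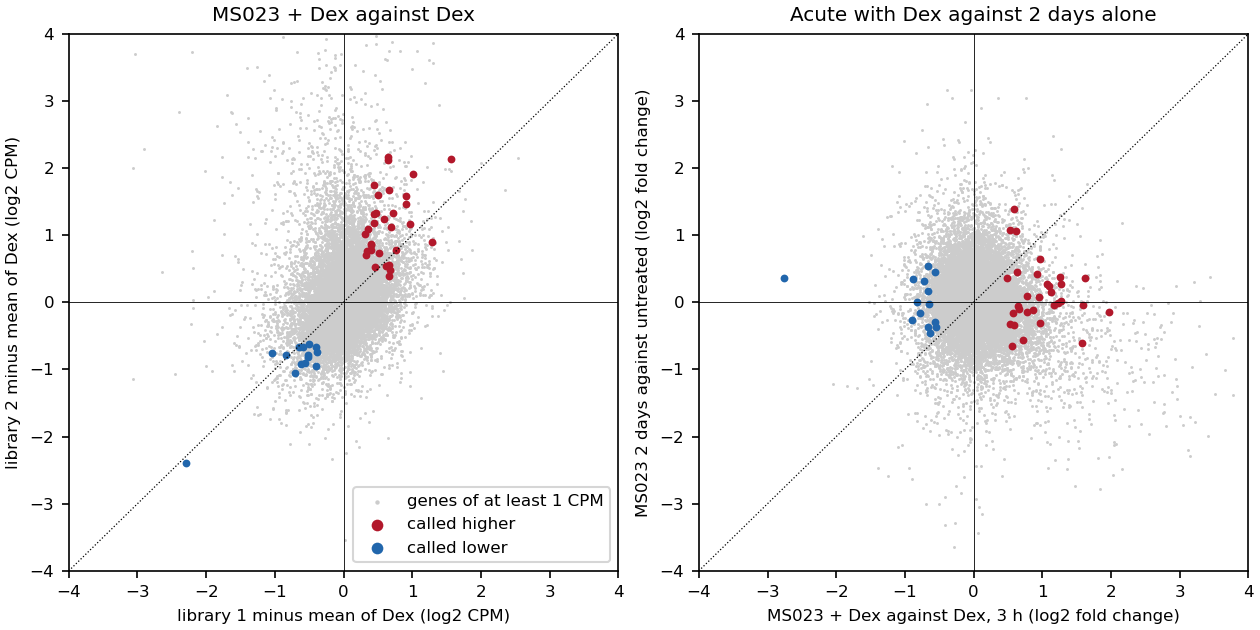
Left, log2 difference from the Dex mean in library 1 (x) and library 2 (y) for 18277 genes of at least 1 mean CPM over the 4 libraries (grey), with called genes in red (31 higher) and blue (14 lower); the dotted line marks equal values. Right, log2 fold change of MS023 + Dex against Dex at 3 h (x) and of MS023 alone for 2 days against untreated (y), which share no library; genes beyond 4 log2 units are not drawn (9 on the left, 8 on the right).

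Among the called genes SMAD6 and KRT7-AS held their call in the most alternatives, 10 of 15 each. SMAD6 (chr15:66702228-66782848, plus strand, hg38) had 1190 and 1095 counts under Dex and 1876 and 1746 with MS023, or 126 and 134 CPM against 205 and 171 CPM. Both combination libraries were above both Dex libraries, with library 1 the higher. Its log2 fold change was 0.53 ± 0.11 (SE, n = 2 per group), or 1.44-fold, with an edgeR Benjamini-Hochberg adjusted p of 0.028. Here and below the SE comes from the fit of all 15 groups and not from these 4 libraries alone. It may be too small for the combination, whose libraries differed the most. The log2 fold change of SMAD6 was 0.66 without library 2 and 0.38 without library 1. The adjusted p of SMAD6 was 0.366 in limma with quality weights.

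IRS2 (chr13:109752698-109786568, minus strand) had 78.8 and 85.7 CPM under Dex and 127 and 120 CPM with MS023, a log2 fold change of 0.58 ± 0.12 (edgeR adjusted p = 0.028). Untreated cells had 39.7 CPM in both libraries, so IRS2 is also a gene that Dex itself raised, by 1.05 log2 units (adjusted p = 2.5e-08). CCN2 (chr6:131948176-131951373, minus strand), a target of the YAP and TEAD transcription factors, had 10.9 and 12.2 CPM under Dex and 19.7 and 20.0 CPM with MS023. The 2 combination libraries of CCN2 differed less than the Dex libraries did, and its log2 fold change was 0.78 ± 0.15 (adjusted p = 0.0271), or 1.71-fold. Without library 2 of the combination IRS2 stood at 0.62 (adjusted p = 0.149) and CCN2 at 0.77 (adjusted p = 0.173). CCN2 was the 1 of 33 tested immediate early genes that was called (0.196% of all genes were), and the list's median was -0.03. CCN1, its close relative, had 27.1 and 29.9 CPM under Dex and 31.8 and 29.5 CPM with MS023 (log2 fold change 0.11, edgeR adjusted p = 0.757).

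KRT18 (chr12:52948871-52952901) rose from 135 and 122 CPM to 177 and 185 CPM, a log2 fold change of 0.49 (edgeR adjusted p = 0.0368). Its partner keratin KRT8 had 389 and 367 CPM under Dex and 435 and 456 CPM with MS023, without passing (0.24, adjusted p = 0.262). H1-10, the linker histone H1.10, rose from 17.0 and 18.1 CPM to 27.9 and 25.9 CPM (0.62, adjusted p = 0.0368). ZSWIM6, which encodes a zinc-finger protein, rose from 2.98 and 3.66 CPM to 6.56 and 7.53 CPM (1.09), and TSKU-AS1, an antisense RNA, from 2.34 and 3.05 to 6.67 and 5.09 CPM (1.13). In all 4 called genes the 2 combination libraries were within 0.5 log2 units of each other, and the 2 last rest on 22 to 77 counts a library. KRT7-AS, whose exon overlaps KRT7 on the other strand, had 53.04 and 37.7 CPM under Dex and 71.8 and 62.2 CPM with MS023 (0.56, edgeR adjusted p = 0.0368). KRT7 itself had 440 and 407, and 447 and 459 CPM. The counts of KRT7-AS were 499 and 309 under Dex and 657 and 636 with MS023. In the authors' deposited tables its mean count was only 5.10. Its log2 fold changes against untreated cells were there -0.10 for Dex and 0.04 for MS023 with Dex. Whether its counts here include reads of KRT7 was not tested.

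Promoter sequences are shown for 3 of the called genes, SMAD6, IRS2 and CCN2. All 3 rose in both combination libraries, as did each of the 31 higher genes. They lay 0.66, 0.62 and 0.76 log2 units above the Dex mean in library 1 and 0.39, 0.54 and 0.78 in library 2. The 3 genes were chosen after their values were seen. Each line gives the 250 bases before the RefSeq start (GRCh38.p14), 5′ to 3′ on the gene's strand. Capitals mark GGAATG, the core bound by TEAD factors, and AGAACA, the hexamer bound by the glucocorticoid receptor, on either strand (CATTCC and TGTTCT); the motifs do not overlap each other here.
SMAD6 (chr15:66701986-66702235, plus strand): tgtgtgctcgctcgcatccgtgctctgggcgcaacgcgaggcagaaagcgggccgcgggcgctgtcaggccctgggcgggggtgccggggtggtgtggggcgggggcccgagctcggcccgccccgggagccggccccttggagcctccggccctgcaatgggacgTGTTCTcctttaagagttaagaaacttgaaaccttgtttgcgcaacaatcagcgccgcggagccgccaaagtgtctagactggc
CCN2 (chr6:131951373-131951622, minus strand): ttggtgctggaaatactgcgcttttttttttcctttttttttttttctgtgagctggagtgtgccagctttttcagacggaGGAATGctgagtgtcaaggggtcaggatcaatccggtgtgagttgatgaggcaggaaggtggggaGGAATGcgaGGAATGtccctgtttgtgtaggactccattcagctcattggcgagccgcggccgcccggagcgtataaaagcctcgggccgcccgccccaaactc
IRS2 (chr13:109786584-109786833, minus strand): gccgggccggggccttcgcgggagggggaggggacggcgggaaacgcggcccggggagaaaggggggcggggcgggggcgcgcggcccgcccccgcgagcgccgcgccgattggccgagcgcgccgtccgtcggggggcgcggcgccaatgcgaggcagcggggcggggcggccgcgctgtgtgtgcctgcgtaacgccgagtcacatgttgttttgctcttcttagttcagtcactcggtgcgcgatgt

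CCN2 held 3 GGAATG matches, starting 169, 104 and 95 bases before the start, and SMAD6 held 1 TGTTCT, starting 84 bases before. Of 35 called genes found in the RefSeq table, 3 held GGAATG and 3 held AGAACA in this window, against 11.9% and 12.4% of 27305 promoters. A match is a description of letters and not of binding. TEAD1, which encodes a TEAD factor, was itself among the higher genes, at 25.9 and 28.5 CPM under Dex and 35.9 and 49.2 CPM with MS023 (log2 fold change 0.65, edgeR adjusted p = 0.028). Its log2 fold change was 0.40 without library 2 of the combination. In the edgeR fit with the processed-pseudogene term it was 0.38 (adjusted p = 0.433).

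The rises of the other higher genes rested more on library 2. TXN (chr9:110243811-110256640), which encodes the redox protein thioredoxin, had 4.04 and 4.27 CPM under Dex and 6.56 and 18.9 CPM with MS023, from 35 to 193 counts a library. The groups did not overlap, but library 2 lay far above library 1. The fitted log2 fold change of TXN was 1.63 ± 0.33 (adjusted p = 0.0368), and without library 2 it was 0.66 (adjusted p = 0.727). RO60, the protein of Ro ribonucleoproteins, had 4.57 and 5.01 against 6.56 and 16.3 CPM (1.27), and FYB1, an adaptor of T-cell signalling, 2.34 and 1.83 against 3.28 and 9.29 CPM (1.60).

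LTV1 (ribosome biogenesis), PMP22 (a myelin protein also made by epithelial cells), SNW1 (a splicing and transcription coregulator), RSPO3 (a secreted enhancer of Wnt signalling), MBD2 (a reader of methylated DNA), PALLD (the actin-binding palladin) and NR1D2 (the nuclear receptor REV-ERB beta) were the other protein-coding genes among the largest rises, with CHML, which the table names together with OPN3. Their log2 fold changes ran from 0.96 for NR1D2 to 1.57 for LTV1. RSPO3, for example, had 6.59 and 6.96 CPM under Dex and 9.62 and 20.6 CPM with MS023. The processed pseudogenes HNRNPMP1 and FTH1P2 were also called, at 1.97 and 1.27; HNRNPMP1 rested on 10 and 9 against 31 and 52 counts, and both share sequence with their parent genes. Smaller rises, outside the 15 largest and named because they were called, were ANKRD28, TNRC6A (an Argonaute-binding protein of microRNA silencing), ANKRD40, BPNT2, NSD2 (a histone H3 lysine 36 methyltransferase) and PFKP (a phosphofructokinase), from 0.54 to 0.92.

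The falls were modest. UBAC2 (chr13:99200774-99386434) had 11.1 and 10.9 CPM under Dex and 5.25 and 6.46 CPM with MS023, a log2 fold change of -0.90 ± 0.20 (edgeR adjusted p = 0.0368). FAM200A had 15.0 and 19.0 against 9.40 and 9.78 CPM (-0.82), and METTL26 21.5 and 21.1 against 14.4 and 11.3 CPM (-0.73). CENPP, a centromere protein whose exons overlap 3 genes on the other strand, had 15.7 and 14.8 against 9.84 and 8.02 CPM (-0.78). In each the combination libraries lay below both Dex libraries without overlap. NOP2 (-0.65), PAXX (-0.66), CDC37L1 (an HSP90 cochaperone, -0.67) and the antisense RNAs LOC100996842 (-0.88), AL163051.1 (-0.66) and AL928970.1 (-0.63) complete the 10 largest falls above 1 CPM. CRIP1, a LIM-domain protein, had 53.7 and 65.4 CPM under Dex and 45.4 and 35.4 CPM with MS023 (-0.56, adjusted p = 0.028). TM2D3 (-0.57) and KCTD13 (-0.54) were called as well, and so was the antisense RNA AC005625.1, at 1.70 and 1.22 against 0.22 and 0.20 CPM. Without library 2 none of these falls passed; UBAC2 was then at -1.06 with an adjusted p of 0.207.

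**Figure D4:**
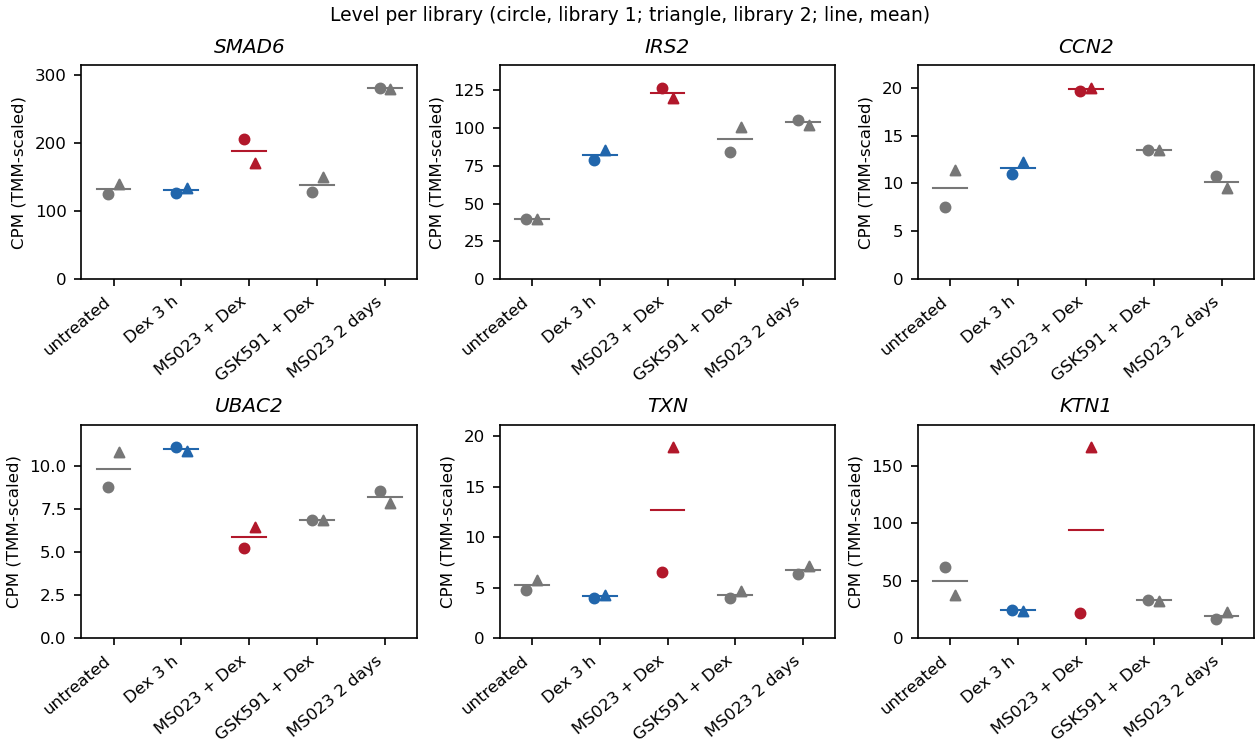
CPM (scaled by trimmed mean of M-values) of 6 genes in each library of 5 groups; circles are library 1, triangles library 2 and lines the mean. For SMAD6, IRS2, CCN2 and UBAC2 both MS023 + Dex libraries lie to one side of both Dex libraries. They are closest for CCN2 and IRS2, and stand at 205 and 171 CPM for SMAD6 and 5.25 and 6.46 CPM for UBAC2. TXN and KTN1 reach 18.9 and 166 CPM in library 2 only.

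The called genes were then read in cells given MS023 alone. MS023 alone for 2 days against untreated cells shares no library with the acute comparison but differs in time and in the absence of Dex. It called 2381 genes by edgeR (10.4%), 6.18% of all genes higher and 4.21% lower. Among the 31 genes higher in the acute combination, 16 had the same sign at 2 days and 6 were called in the same direction: SMAD6, IRS2, H1-10, CHML, ANKRD40 and KRT18. SUPT16H and KRT7-AS were called in the opposite direction. Among the 14 lower genes 7 had the same sign, with KCTD13 and AL928970.1 called lower again and CRIP1 and CDC37L1 called higher. Over all genes tested, 50.4% were above 0 at 2 days, so these sign counts were near that background.

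The 3 largest values at 2 days belonged to genes whose 2 acute libraries were within 0.5 log2 units of each other. SMAD6 had 125 and 140 CPM untreated and 280 CPM in both 2-day libraries, a log2 fold change of 1.08 ± 0.11 (edgeR adjusted p = 1.1e-09). IRS2 rose from 39.7 CPM to 106 and 102 CPM (1.39, adjusted p = 1.4e-10). H1-10 rose from 23.1 and 27.3 CPM to 53.7 and 51.4 CPM (1.06, adjusted p = 3.5e-08). CCN2 had 7.56 and 11.4 CPM untreated and 10.8 and 9.51 CPM at 2 days, with a log2 fold change of 0.09 (adjusted p = 0.798), and TXN was at 0.36 (adjusted p = 0.56). KRT7-AS was at -0.66 (adjusted p = 0.00046). The authors' deposited table of MS023 for 2 days against untreated cells has SMAD6 at a log2 fold change of 0.05 ± 0.07 (SE; adjusted p = 0.669), which did not pass, and CCN2 at 0.14. The same authors' deposited table has IRS2 at 0.99, H1-10 at 0.60, KRT18 at 0.32 and ANKRD40 at -0.25. The authors' values come from another counting and may be pulled toward 0 (below), so their sizes are not like for like with the edgeR values.

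The acute effect of MS023 was set against that of GSK591 at the same dose and time, both with Dex. GSK591 with Dex called 0 genes against Dex by edgeR, with 1306 at an unadjusted p below 0.05, and DESeq2 also called 0. In the direct comparison of MS023 with Dex against GSK591 with Dex 11 genes passed (0.048%), 7 higher with MS023 (0.0305%) and 4 lower (0.0175%). CSGALNACT1, an enzyme of chondroitin sulfate synthesis, had 8.58 and 7.91 CPM with GSK591 and 14.7 and 17.7 CPM with MS023, a log2 difference of 0.98 ± 0.17 (adjusted p = 0.011). MREG (melanoregulin) had 2.35 and 1.56 against 5.69 and 5.87 CPM (1.56), and SMS (spermine synthase) 3.98 and 4.58 against 7.00 and 12.6 CPM (1.21). The Dex libraries lay between the 2 inhibitors for CSGALNACT1, MREG and SMS. Neither inhibitor was called against Dex in these genes by edgeR, so the part of each in the difference was not resolved.

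PALLD (0.92), BPNT2 (0.94) and AL163051.1 (-0.70) were the 3 genes called both against Dex and against GSK591 with Dex. GNAQ (a G-protein alpha subunit, 0.91) and CDV3 (0.77) were higher with MS023, and ZNF862 (-0.62), ZSWIM1 (-0.98) and AL034417.3 (-1.68) lower. For most genes called against Dex the difference between the inhibitors was not resolved: SMAD6 was 0.44 above its GSK591 value (95% interval 0.22 to 0.66, adjusted p = 0.09), and CCN2 0.55 (0.26 to 0.85, adjusted p = 0.11). UBAC2, with 6.84 and 6.86 CPM under GSK591, differed by -0.22 (-0.65 to 0.21). Without library 2 of MS023 with Dex this comparison called 0 genes, without its library 1 it called 2303, without either GSK591 library it called 0, and DESeq2 called 0.

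None of the 30 listed glucocorticoid-induced genes was called when MS023 was added to Dex, where 0.196% of all genes were called. At that share 0 calls says little about a list of this size, here and in the lists below. Outside the glucocorticoid-induced list, IRS2 and KRT18 were called higher with MS023, and CRIP1, CDC37L1 and TM2D3 lower. Each of these genes was also called higher by Dex against untreated cells, a comparison that shares the Dex libraries. Dex alone for 3 h called 2410 genes against untreated cells by edgeR (10.5%; 6.11% higher and 4.41% lower), and of 30 glucocorticoid-induced genes 26 were higher, with a median log2 fold change of 1.27. With MS023 added, 0 of the 30 were called against Dex; 23 lay above and 7 below, with a median of 0.14 (0.16 in library 1 and 0.09 in library 2) against 0.01 for all genes. In 10 of the 30 both combination libraries were above both Dex libraries (17.4% of all genes were), and in 3 both were below (18.1% of all genes). FKBP5, a cochaperone that restrains the receptor, had 5.56 and 5.24 CPM untreated, 40.5 and 40.1 CPM under Dex and 43.5 and 64.3 CPM with MS023 added. Its log2 fold change of 0.42 had a 95% interval of -0.01 to 0.85 (adjusted p = 0.361), with library 1 at 0.11.

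TSC22D3 (GILZ), an anti-inflammatory effector, had 114 and 112 CPM under Dex and 138 and 112 CPM with MS023 added (0.15, interval -0.09 to 0.38). PER1, a clock gene, had 44.6 and 40.3 against 49.8 and 49.3 CPM (0.22, interval -0.03 to 0.48), and DUSP1, a phosphatase of MAP kinases, 527 and 517 against 598 and 488 CPM (0.06, interval -0.16 to 0.27). The intervals of FKBP5, TSC22D3, PER1 and DUSP1 all ended below a 2-fold rise. This does not bound the whole list of 30, whose log2 fold changes ran from -0.28 to 1.00, none of them called. NR3C1, the receptor gene, had 34.8 and 41.8 CPM under Dex and 45.1 and 47.3 CPM with MS023 added (0.27, adjusted p = 0.252). Of 18 tested genes known to be repressed by glucocorticoids 0 were called, 9 lying above and 9 below. GREM1, an antagonist of bone morphogenetic proteins, was at 1.17 and 0.98 against 2.08 and 4.01 CPM (1.51, adjusted p = 0.0601).

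Some called genes were also called in Dex against untreated cells; since both comparisons use the Dex libraries, only the values of each are given. RSPO3 stood at -0.85 in Dex against untreated and 1.17 in MS023 with Dex against Dex; PMP22 at -1.47 and 1.26; ZSWIM6 at -1.27 and 1.09; CRIP1 at 0.64 and -0.56; and IRS2 at 1.05 and 0.58. PMP22, for instance, had 5.78 and 6.25 CPM untreated, 2.13 and 2.20 CPM under Dex and 4.16 and 6.16 CPM with MS023 added.

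The targets of MS023 were not called. Of 6 type I PRMT genes 4 had enough counts to test, and PRMT6 and PRMT8 did not. PRMT1 had 30.4 and 34.9 CPM under Dex and 40.7 and 37.7 CPM with MS023 (log2 fold change 0.26, edgeR adjusted p = 0.273), while PRMT2, PRMT3 and CARM1 were at -0.03, 0.16 and 0.19. PRMT5, the target of GSK591, was at 0.36 (adjusted p = 0.475), and PRMT7 and PRMT9 were at -0.36 and -0.41. PRO-seq counts show transcription of these genes and not enzyme activity.

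The hnRNP and arginine-glycine repeat proteins, many of them substrates of type I PRMTs, were the list with the most called genes. Of 41 tested genes 2 were called, both higher (0.135% of all genes were): HNRNPDL, at 40.5 and 34.9 against 49.5 and 64.4 CPM (0.59, adjusted p = 0.0271), and HNRNPC, at 16.1 and 17.8 against 22.4 and 31.1 CPM (0.67, adjusted p = 0.0368). The list median was 0.32, made up of 0.04 in library 1 and 0.52 in library 2. NCL (nucleolin) showed the contrast between libraries, at 190 and 157 CPM under Dex and 146 and 417 CPM in the combination, and so did HNRNPM, at 31.0 and 22.3 against 24.9 and 77.5 CPM. HNRNPA1 (0.13) and CIRBP (-0.08) were near 0.

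Mitosis genes had the largest list median of any, 0.72, and 0 of 25 were called (0.196% of all genes were). Library 1 gave 0.05 and library 2 gave 1.18. CENPF, a kinetochore protein, had 27.2 and 30.0 CPM under Dex and 27.9 and 136 CPM in the combination, TOP2A (topoisomerase II alpha) 38.7 and 44.7 against 44.6 and 161 CPM, and MKI67 (Ki-67) 65.3 and 56.9 against 68.7 and 209 CPM. AURKB, PLK1 and CDC20, also mitotic, were at 0.06, -0.07 and 0.05. Library 2 is the library with 2.57 processed-pseudogene counts per 100 coding counts; its part in these values was not tested.

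**Figure D5:**
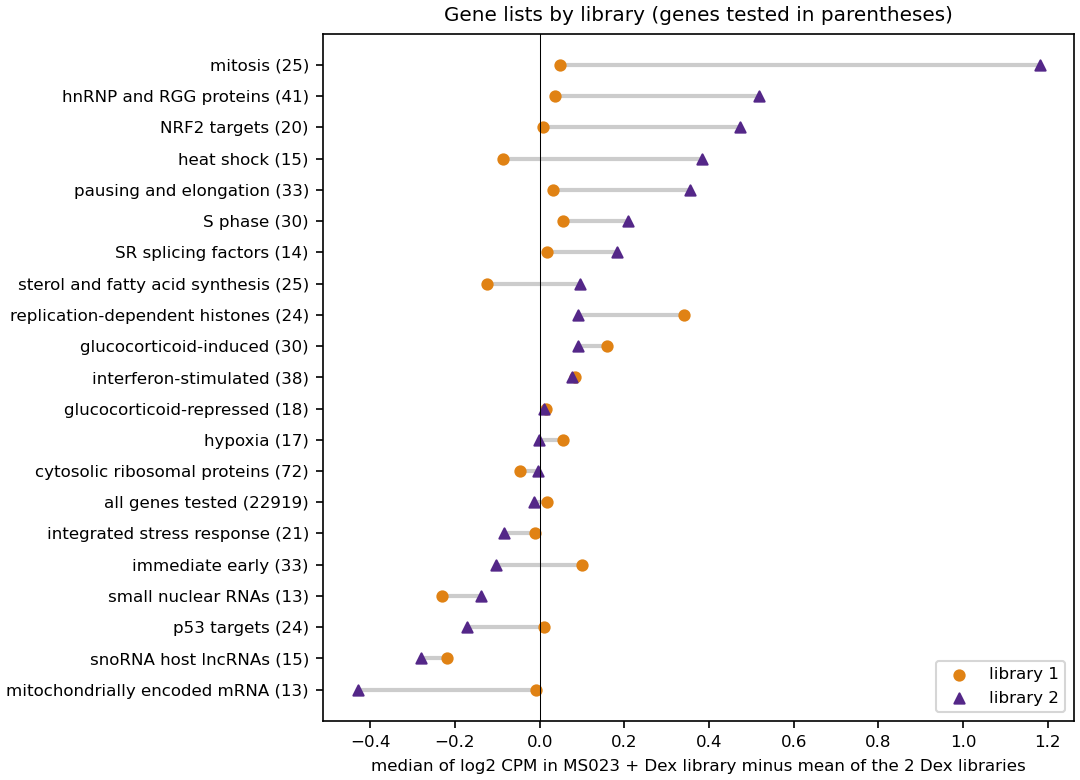
Median over each gene list of log2 CPM in library 1 (circle) or library 2 (triangle) of MS023 + Dex minus the mean of the 2 Dex libraries, for lists of at least 10 tested genes. Mitosis, hnRNP and NRF2 lists lie near 0 in library 1 and at 1.18, 0.52 and 0.47 in library 2, whereas glucocorticoid-induced genes lie at 0.16 and 0.09 and snoRNA hosts at -0.22 and -0.28.

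Targets of NRF2, the regulator of antioxidant genes, showed the same split (0.01 and 0.47), with 0 of 20 called; TXNRD1 (thioredoxin reductase) had 105 and 102 CPM under Dex and 125 and 271 CPM in the combination. Among 33 genes of promoter pausing and elongation 1 was called, SUPT16H, a subunit of the histone chaperone FACT (0.196% of all genes were called). SUPT16H had 20.3 and 23.7 CPM under Dex and 27.3 and 44.6 CPM with MS023 (0.72, edgeR adjusted p = 0.0453). The list stood at 0.03 in library 1 and 0.35 in library 2. HEXIM1, the inhibitor of P-TEFb, was lower in both libraries, at 110 and 124 against 97.7 and 85.0 CPM, without passing (-0.36, adjusted p = 0.13).

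Lists whose 2 libraries lay on the same side included replication-dependent histones and snoRNA hosts. Of 24 histone genes 0 were called; 22 lay above Dex, with a median of 0.21 (0.34 in library 1 and 0.09 in library 2), and 12 were above both Dex libraries in both (17.4% of all genes were). HIST1H1C, the linker histone H1.2, had 104 and 85.5 against 133 and 115 CPM (0.39, adjusted p = 0.15). Of 15 long noncoding RNAs that host small nucleolar RNAs 0 were called, 12 lay below Dex, and 9 were below both Dex libraries in both, against 18.1% of all genes. Their median was -0.27, with SNHG12 at 64.0 and 67.2 against 52.8 and 49.7 CPM (-0.36, adjusted p = 0.127) and GAS5 at 84.2 and 96.8 against 74.7 and 69.1 CPM (-0.33, adjusted p = 0.139).

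Other lists gave no call, against 0.196% of all genes. Each is given as genes tested, median, and then the medians of library 1 and library 2. They were p53 targets (24, -0.11, 0.01, -0.17), interferon-stimulated genes (38, 0.02, 0.08, 0.08), the integrated stress response (21, -0.08, -0.01, -0.08) and heat shock genes (15, 0.29, -0.09, 0.38). Next came sterol and fatty acid synthesis (25, 0.02, -0.12, 0.10), hypoxia genes (17, 0.06, 0.06, -0.002), S-phase genes (30, 0.17, 0.05, 0.21) and SR splicing factors (14, 0.12, 0.02, 0.18). The last were metallothioneins (4, 0.06, 0.04, 0.10), small nuclear RNAs (13, -0.27, -0.23, -0.14) and cytosolic ribosomal proteins (72, 0.01, -0.05, -0.003). The 13 mitochondrially encoded messenger RNAs stood at -0.01 in library 1 and -0.43 in library 2. Markers of A549 cells were present, with 9 of 10 tested and KRT7 and KRT8 at 367 to 459 CPM in these 4 libraries. ALDH1A1 followed library 2, at 92.5 and 101 against 71.2 and 453 CPM. Of 16 markers of other cell types 9 were tested and 0 called. Their log2 fold changes ran from -0.35 to 5.46, with a median of 0.13. Those of leukocytes (PTPRC, CD3E, CD68) and VWF had too few counts to test. Since 9 of the 16 did have enough counts, this list does not show that other cell types were absent.

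The authors' deposited tables give each treatment against untreated cells from another counting of the reads: their mean for TXN was 774, against 56.7 in the count table scaled by size factors, for SMAD6 3011 against 1258, and for KRT18 897 against 1126. In the authors' deposited tables IRS2 stood at 1.18 for Dex and 1.45 for MS023 with Dex (log2 fold change), CCN2 at 0.19 and 1.03, KRT18 at 0.69 and 1.21, RSPO3 at -1.05 and -0.57, and CRIP1 at 0.81 and 0.33. The authors' deposited tables had SMAD6 at -0.11 and 0.08, TXN at -0.31 and 0.01, PMP22 at -0.86 and -0.88, METTL26 at -0.01 and 0.02, and UBAC2 at -0.26 and -0.21. For PMP22, METTL26 and UBAC2 the 2 values of the authors were thus within their standard errors of each other, and for SMAD6 the distance was smaller than the 0.53 found here. The 2 measures may differ in more than the counting. The authors' DESeq2 values for GNB3 at MS023 for 2 days were 0.96 ± 0.60 (SE) with an adjusted p of 0.0303, smaller than that ratio alone gives. Their fold changes may thus have been pulled toward 0, which the sources used here do not state. Sizes are therefore not compared like for like with the edgeR values.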

How the data were processed

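Nascent RNA was measured by PRO-seq in A549 cells, 2 samples in each of 15 groups, grouped by the labels. The authors counted reads per gene with featureCounts 2.0.1 on hg38, per the submitters' processing notes; the aligner, annotation, feature type and use of strand are not given in the sources used here. The deposited table holds raw counts of 58780 genes, all of which matched GENCODE 29, used for positions, gene types and the names of genes beyond the 36049 that the table names. The deposited comparison tables hold the authors' log2 fold changes, standard errors, p-values and mean normalised signal, quoted only where named.

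Counts of all 30 libraries were fitted with edgeR 4.0.16 (R 4.3.3): genes kept by filterByExpr (minimum count 10, total 15; 22919 genes), TMM scaling, 1 coefficient per group, robust quasi-likelihood fit with 15 residual degrees of freedom, and Benjamini-Hochberg adjusted p below 0.05 over all genes tested, in each of 5 comparisons. CPM are TMM-scaled, and log2 CPM adds a prior count of 1. Libraries held 8441211 to 13069598 counts, and 1407807 to 2746560 on nuclear protein-coding genes, which set the precision. Alternatives were DESeq2 1.42.0, limma 3.58.1, other scalings and filters, the compared groups alone, a replicate block and leaving out each library. Named genes were the fixed PRMT and glucocorticoid genes, the 15 largest rises and 10 largest falls of at least 1 CPM among called genes, all called list members, and the 8 genes of at least 10 CPM that differed the most between the combination's libraries in each direction; any others were picked with values in view. The comparison and the 25 gene lists were chosen with earlier results of these data known. Promoters are from RefSeq (GRCh38.p14).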

Additional observations from a re-analysis of the deposited data

Results flagged for a closer look

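The difference between the acute effects of MS023 and GSK591, both with Dex at 3 h, passed the test of the difference itself (edgeR, Benjamini-Hochberg adjusted p below 0.05 over 22919 genes) in 11 genes. The log2 differences, MS023 minus GSK591, were 1.56 for MREG, 1.21 for SMS, 0.98 for CSGALNACT1, 0.94 for BPNT2, 0.92 for PALLD, 0.91 for GNAQ and 0.77 for CDV3, and -0.62 for ZNF862, -0.70 for AL163051.1, -0.98 for ZSWIM1 and -1.68 for AL034417.3. None of the 11 was called without library 2 of the combination. Groups of 2 libraries are too small for a search for single outlying samples.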

How the results depend on the processing

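The count of 45 genes called in MS023 with Dex against Dex was 0 in a fit of the compared groups alone and in limma with quality weights, 25 without robust fitting, 508 with no filter on low counts and 8 with the processed-pseudogene term; the cause was not tested. Scaling by total counts alone called 122 genes, 120 of them higher, and moved the median of all genes to 0.33. Leaving out 1 library gave 0 to 2388. The 4 other settings gave 46 to 60 except the replicate block, below. The 11 genes of MS023 with Dex against GSK591 with Dex became 0 in DESeq2, the compared groups alone, limma and total-count scaling, 1 without robust fitting and 395 with no filter, and 0 to 2303 with 1 library left out. GSK591 with Dex against Dex called 16 genes in the compared groups alone, 2 with no filter and 0 in each other setting. Of 2381 genes at MS023 for 2 days, DESeq2 called 1344, the compared groups alone 3952, total-count scaling 9228 (9154 higher), and fits lacking 1 library 964 to 1261. Of 2410 for Dex alone, DESeq2 called 1522, total-count scaling 1259, and fits lacking 1 library 1355 to 1664. Where 1 library was left out, the lone sample is assumed to vary like the other groups.

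With the replicate number as a block, 114 genes were called in MS023 with Dex against Dex, including all 45, and 42 against GSK591 with Dex, including all 11. The deviations of same-numbered samples correlated at 0.15 and -0.03 in these comparisons, 0.10 between GSK591 with Dex and Dex, and -0.05 and 0.01 in the other 2, so the labels' numbers are not taken to pair the samples.

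Over 1663 values of 113 named genes, 1236 kept direction and side of the threshold, 318 lost the call, 46 gained one and 63 uncalled values changed sign. Of called values 0 changed sign, which is no evidence of stability, because the groups did not overlap in any called gene. DESeq2 gave a further 31 values of named genes an adjusted p of NA, left out. Over all genes tested it gave NA to 15996 in MS023 with Dex against Dex, 6665 at MS023 for 2 days and 3999 for Dex alone. With 2 libraries a group, 35 to 1876 counts a library for genes such as TXN and SMAD6 limit what can be resolved. SEs, intervals and p-values of the main fit rest on a spread estimated over all 15 groups. They may be too narrow for the combination, whose libraries had the largest SD of the log2 difference (0.44).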
